A study of Mus musculus with 6 samples.

Results

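The 10 genes described here encode transcription regulators that steer T cells towards effector, follicular helper or innate-like fates: Tbx21, Eomes, Prdm1, Bcl6, Maf, Rora, Zbtb16, Ahr, Id2 and Id3. They were chosen by gene symbol, as the probe sets annotated with exactly 1 of these symbols. Each of the 10 had 1 such probe set, so they make up 10 of the 19938 genes that could be tested. They were measured in sorted mouse thymocytes at the CD4 single-positive stage, when developing T cells bear CD4 without CD8 on their surface.

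Bach2 knockout thymocytes carried the Ly5.1- form of the surface protein CD45 and were represented by 3 arrays. Wildtype thymocytes carried the Ly5.1+ form and were also represented by 3 arrays. Both came from male C57BL/6 mixed bone marrow chimeras: lethally irradiated Rag1 knockout hosts, 8 weeks old, whose own cells make no T or B cells, were given a 1:1 mixture of lineage-depleted marrow from 8-week-old male donors, and the thymus was taken 2 months later. The labels call the 3 samples of a genotype biological repeats from separate mice. The Ly5.1 form and the Bach2 genotype went together in every sample, so their effects cannot be told apart.

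T-bet (the product of Tbx21) and Eomes are related T-box factors of type 1 helper, cytotoxic and natural killer cells. Blimp-1 (Prdm1) drives terminal effector differentiation, Bcl6 drives the follicular helper fate, and the pair repress each other. PLZF (Zbtb16) directs natural killer T cells and other innate-like lymphocytes, while c-Maf, RORα and the ligand-activated aryl hydrocarbon receptor Ahr act in interleukin 17 and other effector and regulatory programmes. Id2 and Id3 have a helix-loop-helix but no DNA-binding region, and they hold E proteins such as E2A and HEB off DNA. Bach2 itself is a repressor that binds sites like those of AP-1 and Maf factors, is known to restrain effector differentiation of T cells, and represses Prdm1 in B cells.

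None of the 10 factors passed the test between the genotypes, yet 3 of them, Eomes, Ahr and Id2, had knockout and wildtype values that did not overlap. By limma, at a threshold of 0.05 on p-values adjusted (Benjamini-Hochberg) over the 19938 genes, 0 of the 10 were called in either direction, against 0.567% of all genes tested, of which 0.351% were called as higher and 0.216% as lower. At an unadjusted p under 0.05 there were 3 of the 10, against 6.91% of all genes. Non-overlapping values were found for 1 factor that was higher in the knockout (Id2), where 5.13% of all genes showed this, and for 2 that were lower (Eomes and Ahr), where 6.57% of all genes did. In the other 7 the groups overlapped, and over all genes 11.7% did not overlap. The median knockout minus wildtype difference was -0.03 on the log2 scale for the 10 factors and -0.01 for all genes. In size, regardless of sign, the median difference was 0.04 for the factors and 0.08 for all genes.

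Promoter sequences are shown for the factors on which these results turn and for which the RefSeq promoter table (build GRCm38.p6) held one. Prdm1 is shown as the known target of Bach2 in B cells, Eomes as the factor with the lowest knockout value relative to wildtype, and Id2 as the factor with non-overlapping, higher knockout values. Each window runs from 250 bases before to 50 bases after the annotated start of the transcript, 5′ to 3′ on the strand of the gene. Capitals mark a match to TGANTCA in Prdm1 and the E-box CANNTG in Id2, where N is any base. TGANTCA is a loose pattern that takes in the cores of AP-1 and Maf-type sites. The Eomes window held neither and is all in lower case. The windows are chr10:44458699-44458998 on the minus strand for Prdm1, chr9:118477939-118478238 on the plus strand for Eomes and chr12:25096043-25096342 on the minus strand for Id2.
Prdm1: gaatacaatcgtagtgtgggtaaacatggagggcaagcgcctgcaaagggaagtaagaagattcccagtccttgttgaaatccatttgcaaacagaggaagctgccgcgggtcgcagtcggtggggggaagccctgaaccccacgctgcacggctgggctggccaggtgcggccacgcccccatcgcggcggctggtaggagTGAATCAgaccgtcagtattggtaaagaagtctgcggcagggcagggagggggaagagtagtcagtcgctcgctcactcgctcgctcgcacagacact
Eomes: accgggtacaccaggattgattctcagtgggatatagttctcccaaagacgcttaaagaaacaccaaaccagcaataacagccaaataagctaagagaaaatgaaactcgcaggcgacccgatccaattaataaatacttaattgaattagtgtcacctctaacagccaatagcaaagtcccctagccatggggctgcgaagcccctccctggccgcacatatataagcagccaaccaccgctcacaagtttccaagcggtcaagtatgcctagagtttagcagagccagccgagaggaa
Id2: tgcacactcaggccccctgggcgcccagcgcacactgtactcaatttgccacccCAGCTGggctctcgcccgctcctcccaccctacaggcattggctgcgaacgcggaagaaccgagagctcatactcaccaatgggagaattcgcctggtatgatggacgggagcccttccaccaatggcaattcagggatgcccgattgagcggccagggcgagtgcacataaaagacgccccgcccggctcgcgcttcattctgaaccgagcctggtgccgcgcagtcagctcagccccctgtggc

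The table held 8 windows for 7 of the 10 factors, and for Maf, Zbtb16 and Ahr none was used. Of these 8 windows, 1 held TGANTCA, against 7.81% of all 32851 windows in the table. The match was the Prdm1 stretch shown in capitals, TGAATCA, which begins at base 203 of the window. The base at N was A there, so the match does not by itself make the stretch an AP-1 or Maf-type site. E-boxes were searched because E proteins bind them, and 4 of the 8 windows held at least 1, against 72.3% of all windows. Both motifs read the same on either strand, and neither search overlapped the other in the shown matches. The Prdm1 window also held 2 E-boxes, which are not capitalised. A match of letters is a description of the window and no measurement of binding.

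Bach2 itself was checked first, because it tests the labels. Its probe set read 6.50, 6.42 and 6.52 on the log2 scale on the knockout arrays, against 7.89, 8.20 and 8.05 on the wildtype arrays. The knockout level was 2.96-fold lower (adjusted p = 0.000156 by limma). The part of Bach2 that was deleted is not given in the labels, so the signal left in the knockout was not interpreted. Of 8 CD4 T cell genes, 0 passed by limma and 1 had an unadjusted p under 0.05, against 6.91% of all genes. Cd4, named like Cd8a below outside the rule for genes, lay between 10.34 and 10.35 in the knockout, against 10.33 to 10.43 in wildtype, and the mean of the 8 genes was 10.66 to 10.70 in the knockout, against 10.63 to 10.73 in wildtype. The genotypes were apart without overlap for the costimulatory receptor Cd28 (difference 0.25, adjusted p = 0.615) and the chemokine receptor Ccr7 (-0.15, adjusted p = 0.887). Cd8a was nevertheless above the level of the other arrays on knockout replicate 3, at 8.90, against 7.67 and 7.90 on the other knockout arrays and 7.67 to 7.86 in wildtype.

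**Figure D1:**
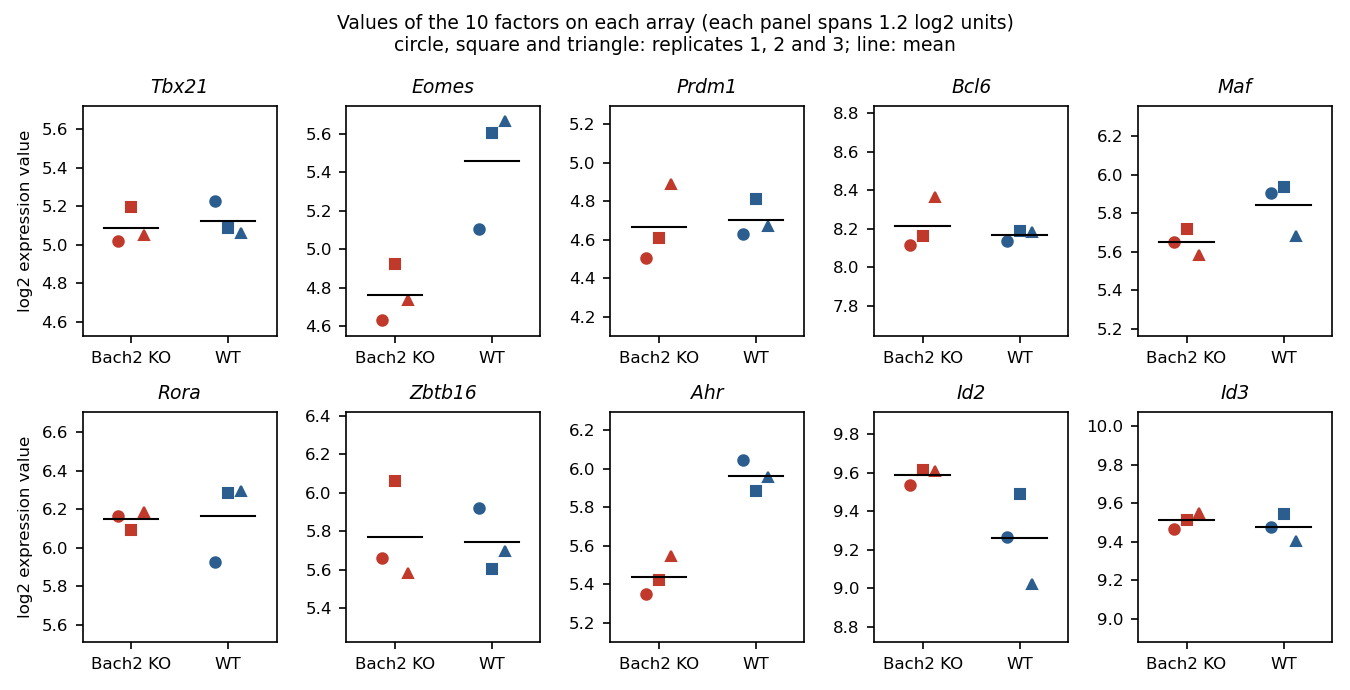
Log2 expression values of the 10 factors, 1 panel per gene, with the 3 Bach2 knockout arrays on the left in red and the 3 wildtype arrays on the right in blue; marker shapes are replicates and lines are means. The red and blue points are separate for Eomes, Ahr and Id2 and mixed for the other 7 factors, and wildtype replicate 1 of Eomes, at 5.11, lies below the other wildtype arrays.

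Eomes had the largest difference among the T-box factors and among all 10. It was at 4.63, 4.92 and 4.74 on the knockout arrays, against 5.11, 5.61 and 5.66 on the wildtype arrays. All knockout values lay below all wildtype values, and wildtype replicate 1 was the nearest to the knockout. The mean was 4.76 ± 0.15 in knockout and 5.46 ± 0.31 in wildtype cells (SD, n = 3 each). The 1.62-fold lower level in the knockout did not pass the test over all genes (limma, difference -0.70 ± 0.15 on the log2 scale, adjusted p = 0.106). Its 95% interval, which is not adjusted for the number of genes, ran from -1.03 to -0.36. When each array was left out in turn, the difference was -0.87 and passed without wildtype replicate 1 (adjusted p = 0.0131), and without wildtype replicate 3 the adjusted p was 0.383. Of 11 further settings Eomes passed in 1, with the replicate number as a block (limma, adjusted p = 0.039). The labels state no such pairing, and whether same-numbered samples shared a mouse was not settled. The highest adjusted p was 0.656, without moderation. In sorted cells measured in bulk, a smaller number of Eomes-expressing cells cannot be told apart from less Eomes RNA in each cell.

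Tbx21, the close relative of Eomes, showed little difference. Its values were 5.02, 5.20 and 5.05 in the knockout, against 5.23, 5.09 and 5.06 in wildtype, and they were interleaved. The difference was -0.04 (limma, adjusted p = 0.998), with an interval from -0.26 to 0.18, that is, from 0.837-fold to 1.14-fold of the wildtype level. Tbx21 lay near the array medians of 4.93 to 4.97 and the knockout values of Eomes lay below them. Without a detection call, such bounds describe the signal of a probe set. The gap between the 2 T-box genes was then compared within arrays, a comparison added after the values were seen. With Tbx21 nearly level, it largely restates the Eomes difference and is no independent support for it. Eomes minus Tbx21 was -0.39, -0.28 and -0.31 on the knockout arrays, against -0.12, 0.52 and 0.60 on the wildtype arrays. Only the change of this gap between genotypes has a meaning, since the levels come from different probes. It shifted by -0.66 without overlap. The two-sided exact permutation p was 0.1, the smallest that 3 arrays against 3 can give, and it remained 0.1 after adjustment over the 2 pairs of relatives compared.

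Of 20 other type 1 and cytotoxic genes, all measured, 1 rose and 1 fell, with a median difference of -0.18. By limma 0.567% of all genes were called. At an unadjusted p under 0.05 there were 9 of the 20, against 6.91% of all genes. Values did not overlap in 9, against 11.7% of all genes. The chemokine receptor Cxcr3, which T-bet is known to induce, was at 5.18, 5.39 and 5.36 in the knockout, against 6.34, 7.05 and 6.78 in wildtype. It fell by 1.42 on the log2 scale (limma, adjusted p = 0.00371). Il12rb1, which encodes part of the interleukin 12 receptor, rose by 0.67 (limma, adjusted p = 0.0165), though it passed in 2 of the 6 leave-one-out fits and had an adjusted p of 0.105 without knockout replicate 3. In the whole list 14 genes lay below 0 and 6 above. The mean of the 20 genes was 5.26, 5.55 and 5.32 on the knockout arrays, against 5.43, 5.67 and 5.68 in wildtype, so knockout replicate 2 lay above wildtype replicate 1.

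Prdm1, which encodes Blimp-1, did not differ between the genotypes beyond the spread between arrays. The knockout arrays read 4.50, 4.61 and 4.89, against 4.63, 4.81 and 4.67 in wildtype. The highest and the lowest of the 6 values were both from the knockout, with the highest on replicate 3, the array on which Cd8a was also highest. The difference was -0.04 ± 0.12 (limma, adjusted p = 0.998), and its interval from -0.30 to 0.23 spans 0.813-fold to 1.17-fold of wildtype. The arrays carry no detection call, and a low signal can hide a change, so these bounds describe the signal of the probe set.

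Bcl6, the repressor that opposes Blimp-1, was at 8.12, 8.16 and 8.37 in knockout cells and at 8.14, 8.19 and 8.18 in wildtype cells. Its knockout replicate 3 was the highest array, as for Prdm1, and the other 5 lay within a narrow span. The difference was 0.04 (limma, adjusted p = 0.996), with an interval from -0.18 to 0.27, and it was -0.03 without knockout replicate 3.

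Among 8 partners and co-repressors of Blimp-1 and Bcl6, 6 were measured and 0 passed the test by limma, with a median difference of -0.01. An unadjusted p under 0.05 was found for 3 of the 6, against 6.91% of all genes. Irf4, a factor that cooperates with Batf and acts upstream of Prdm1, was at 7.37, 7.75 and 7.58 in the knockout, against 6.45, 7.17 and 6.87 in wildtype. These values did not overlap, and the difference of 0.74 did not pass (adjusted p = 0.143) except without wildtype replicate 2 (adjusted p = 0.0444) among the 6 leave-one-out fits. Myc, a gene that Blimp-1 represses, differed by -0.28 (adjusted p = 0.449).

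Of 12 follicular helper genes, all measured, 0 passed by limma, with a median difference of 0.04. An unadjusted p under 0.05 was found for 4 of the 12, against 6.91% of all genes. Sh2d1a encodes SAP, the adaptor needed for follicular helper and natural killer T cells. It was at 9.82, 9.68 and 9.65 in the knockout, against 9.28, 9.33 and 9.02 in wildtype (difference 0.51, limma, adjusted p = 0.105). Il6ra, the receptor chain for interleukin 6, differed by 0.39 (adjusted p = 0.243). The list split into 6 genes below 0 and 6 above. The remaining genes with an unadjusted p under 0.05 were lower without overlap, and are named after their values were seen. They were Cd200 at -0.47 (limma, adjusted p = 0.294) and Pdcd1 at -0.35 (adjusted p = 0.357).

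Zbtb16, the PLZF gene, was spread within both genotypes rather than between them. The knockout arrays read 5.66, 6.06 and 5.58, against 5.92, 5.61 and 5.70 in wildtype. Its highest and lowest values were both from the knockout, on replicates 2 and 3. The difference was 0.03 (limma, adjusted p = 0.998), and its interval from -0.29 to 0.34 was among the wider ones of the 10. Of 8 natural killer T cell markers 7 were measured and 0 passed by limma. An unadjusted p under 0.05 was found for 4 of the 7, against 6.91% of all genes. The markers had a median difference of -0.06. Their mean was 6.34, 6.33 and 6.39 in the knockout, against 6.32, 6.60 and 6.42 in wildtype. Il2rb, the beta chain of the interleukin 2 and 15 receptors, differed by -0.76 (adjusted p = 0.181). The surface receptor Cd160 differed by -0.44 (adjusted p = 0.398). The list split into 4 genes below 0 and 3 above, and the other two with an unadjusted p under 0.05 were higher without overlap: Il17rb at 0.37 (adjusted p = 0.544) and Cd44 at 0.27 (adjusted p = 0.588), both named after their values were seen.

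Ahr, the aryl hydrocarbon receptor, had the smallest p of the 10. It was at 5.35, 5.42 and 5.55 on the knockout arrays, against 6.05, 5.88 and 5.96 on the wildtype arrays. The groups were apart, with the nearest knockout and wildtype values at 5.55 and 5.88, and wildtype replicate 1 was the highest array. The mean was 5.44 ± 0.10 in knockout and 5.96 ± 0.08 in wildtype cells (SD, n = 3 each). Ahr was 1.44-fold lower in the knockout (limma, difference -0.52 ± 0.10, adjusted p = 0.0552), with an unadjusted interval from -0.74 to -0.30. Of 11 further settings it passed in 2: when dim genes were left out of the fit (adjusted p = 0.029) or arrays were weighted (adjusted p = 0.0299). The highest adjusted p among the 11 was 0.389, without moderation, and with all probe sets it was 0.251. In the 6 leave-one-out fits it passed in 0, with differences from -0.58 to -0.48.

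Other genes of the Ahr pathway were checked beside it. Of 9 listed, 8 were measured and 0 passed by limma, with a median difference of 0.03. An unadjusted p under 0.05 was found for 1 of the 8, against 6.91% of all genes. Tiparp, which the receptor induces and which restrains it, was at 6.85, 6.67 and 6.93 in the knockout, against 6.52, 6.70 and 6.42 in wildtype (difference 0.27, adjusted p = 0.657). Cyp1a1, the classic target gene of the receptor, differed by -0.18 (adjusted p = 0.953). Its means of 3.64 in the knockout and 3.83 in wildtype lay below the array medians of 4.93 to 4.97. So did the means of Ahrr, Cyp1a2, Cyp1b1, Nqo1 and Aldh3a1 in each genotype, named after their values were seen. A low signal can hide a change, so these values do not show whether targets of the receptor changed. Arnt, the partner with which Ahr binds DNA, differed by 0.00 with an interval from -0.21 to 0.21 (adjusted p = 1), and it is named here after its values were seen.

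Rora and Maf, the remaining factors of interleukin 17 and other effector programmes, did not pass either. Rora was at 6.16, 6.09 and 6.19 in the knockout, inside the wildtype values of 5.92, 6.29 and 6.29, of which replicate 1 was the lowest. Its difference was -0.02 (limma, adjusted p = 0.998), with an interval from -0.28 to 0.24. Maf was at 5.65, 5.72 and 5.58 in the knockout, against 5.91, 5.94 and 5.68 in wildtype. Only wildtype replicate 3 fell within the knockout values. The difference of Maf was -0.19 ± 0.10 (limma, adjusted p = 0.841), from -0.42 to 0.04, and below 0 in all 6 leave-one-out fits.

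Of 9 listed type 17 genes, 6 were measured and 0 passed by limma, with a median difference of 0.01. An unadjusted p under 0.05 was found for 1 of the 6, against 6.91% of all genes. The chemokine receptor Ccr6 was at 3.52, 3.88 and 4.10 in the knockout, against 4.44, 5.42 and 5.34 in wildtype (difference -1.23, adjusted p = 0.0677). It passed without wildtype replicate 1 (adjusted p = 0.00274) and had an adjusted p of 0.296 without wildtype replicate 3. The interleukin 23 receptor Il23r differed by -0.12 (adjusted p = 0.984).

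**Figure D2:**
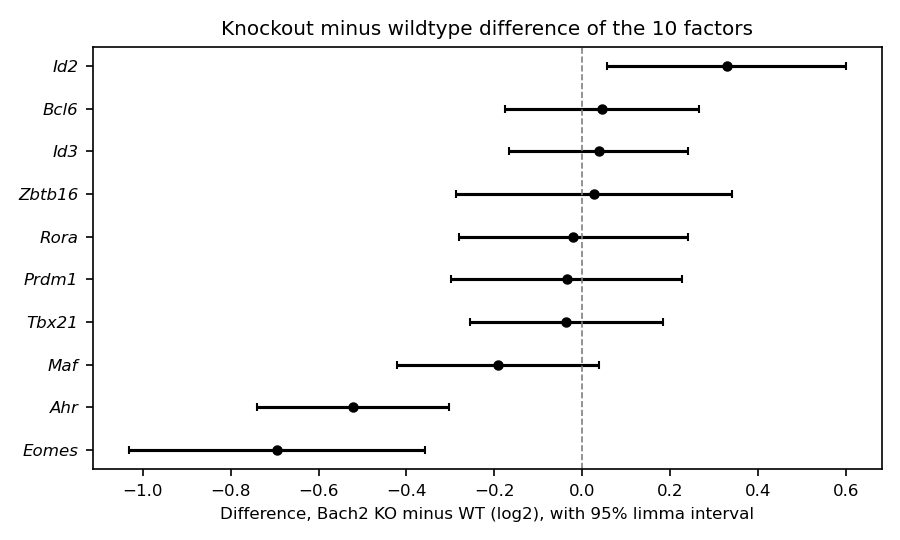
Bach2 knockout minus wildtype differences of the 10 factors on the log2 scale, with points for the limma estimate and bars for its 95% interval, which is not adjusted for the number of genes. The bars of Eomes and Ahr lie below 0 and that of Id2 above 0, while the other 7 cross 0 and reach no further than -0.42 or 0.34.

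Id2 was the factor with higher knockout values. It was at 9.54, 9.61 and 9.61 on the knockout arrays, against 9.27, 9.49 and 9.02 on the wildtype arrays. The knockout arrays were close to each other and the wildtype arrays spread over a wider range, with replicate 2 just below the lowest knockout array. The mean was 9.59 ± 0.04 in knockout and 9.26 ± 0.23 in wildtype cells (SD, n = 3 each), a 1.26-fold higher level in the knockout that did not pass the test (limma, difference 0.33 ± 0.12, adjusted p = 0.561). Leaving out each array gave differences from 0.21 to 0.44.

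Id3, which in the thymus is induced by T cell receptor signals through Egr factors, was the steadiest of the 10. Its values were 9.47, 9.52 and 9.55 in the knockout, against 9.48, 9.54 and 9.40 in wildtype, and the groups were interleaved. All 6 arrays lay within 0.15, where the median range over the arrays was 0.37 for all genes and the largest among the factors was 1.03, for Eomes. The difference of Id3 was 0.04 (limma, adjusted p = 0.997), from -0.17 to 0.24, so that the interval spans 0.891-fold to 1.18-fold of wildtype. Id3 is the 1 factor on the chromosome of Bach2, with 794 tested genes between the pair in the RefSeq gene order, and 0 of the 10 share the chromosome of Ptprc, the gene of the Ly5.1 marker.

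The gap between Id2 and Id3 was compared within arrays as for the T-box pair, again after the values were seen and with the same limit. Id2 minus Id3 was 0.07, 0.10 and 0.06 on the knockout arrays, against -0.21, -0.05 and -0.38 on the wildtype arrays. The shift was 0.29 without overlap, with a two-sided exact permutation p of 0.1, the smallest possible. The spread of this gap was 0.02 in knockout and 0.16 in wildtype cells (SD, n = 3 each).

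The E proteins and the other Id genes, 5 in all and all measured, held 0 genes past the test by limma. An unadjusted p under 0.05 was found for 1 of the 5, against 6.91% of all genes. All 5 lay below 0, with a median difference of -0.12. Tcf4, which encodes the E protein E2-2, was at 5.88, 5.79 and 6.00 in the knockout, against 6.11, 6.17 and 6.06 in wildtype (difference -0.22, adjusted p = 0.702). Tcf3, the gene of E2A, differed by -0.13 (adjusted p = 0.933). Of the 3 Egr factors 0 passed by limma, or had an unadjusted p under 0.05. Egr2, which acts upstream of Zbtb16 in natural killer T cells, was at 9.80, 9.78 and 9.95 in the knockout, against 9.66, 9.67 and 9.66 in wildtype. The Egr2 values did not overlap between genotypes, as was so for 11.7% of all genes. Egr2 differed by 0.18 (limma, adjusted p = 0.81) and Egr3 by 0.09 (adjusted p = 0.979).

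Set beside other factors of T cell fate, the 10 were not the ones that passed. Of 25 such factors listed, 23 were measured, 2 fell and 0 rose, with a median difference of -0.08. At an unadjusted p under 0.05 there were 9 of the 23, against 6.91% of all genes. Values did not overlap in 13, against 11.7% of all genes. Both that fell mark regulatory T cells. Foxp3, the defining factor of that lineage, fell by 2.43 (limma, adjusted p = 0.00148), and Ikzf2 (Helios) fell by 1.51 (adjusted p = 0.00754). Ikzf2 lost its call without wildtype replicate 3 (adjusted p = 0.0617). Relatives of the 10 by protein family gave 0 calls by limma among 21 measured of 24, with 2 at an unadjusted p under 0.05 and a median difference of -0.04. The T-box gene Tbx6 differed by 0.43 (adjusted p = 0.448) and the PRDM gene Prdm10 by -0.28 (adjusted p = 0.68). Over all 9 of these lists, 97 distinct genes were measured, of which 1 rose and 3 fell (4.12%, against 0.567% of all genes). Without wildtype replicate 3, 2 of them passed.

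**Figure D3:**
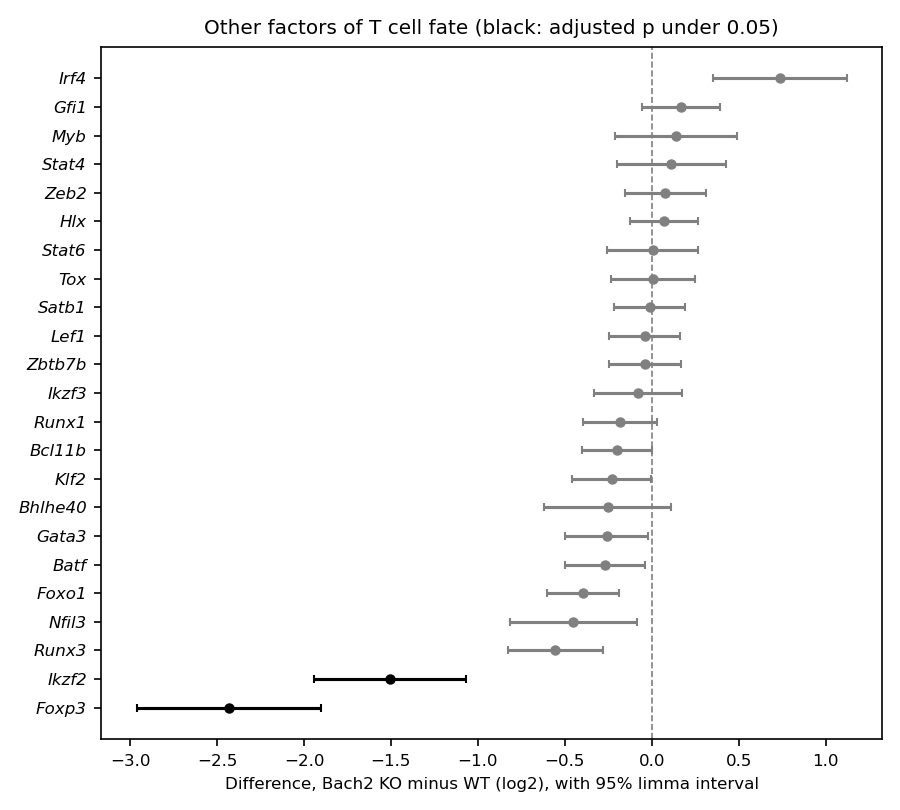
Bach2 knockout minus wildtype differences of 23 other factors of T cell fate on the log2 scale, with 95% limma intervals that are not adjusted for the number of genes; black marks an adjusted p under 0.05. Foxp3 and Ikzf2, at -2.43 and -1.51, are the black points at the bottom, and Irf4, at 0.74, is the topmost grey point.

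Markers of other cells were set beside the factors, array by array. The mean of 13 regulatory T cell genes was 7.35, 7.30 and 7.36 on the knockout arrays, against 7.70, 8.38 and 8.33 on the wildtype arrays. Of the 13, 4 fell and 1 rose, where 0.567% of all genes were called by limma. An unadjusted p under 0.05 was found for 11, against 6.91% of all genes, and the median difference was -0.74. Beside Foxp3 and Ikzf2, those that fell were Il2ra, a subunit of the interleukin 2 receptor (difference -1.93, adjusted p = 0.0245 by limma), and Lrrc32 (-1.86, adjusted p = 0.0105). The riser was Izumo1r, named after its values were seen (0.92, adjusted p = 0.0434). Leaving out each array, Il2ra passed in 1 of 6 fits, Lrrc32 in 4 and Izumo1r in 1. Wildtype replicate 1 lay nearest to the knockout in this mean, as it did for Eomes, whereas for Ahr it was the wildtype array farthest from the knockout. For Id2 the nearest was wildtype replicate 2. A low wildtype replicate 1 was not particular to Eomes and regulatory T cell genes. This array was also the lowest wildtype array in the means of the type 1, CD8 T cell and double-positive thymocyte lists. It was not the lowest in the follicular helper and B cell lists. The part of regulatory T cells in the lower Eomes and Ahr values was not tested.

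The mean of 6 CD8 T cell genes was 6.35, 6.85 and 6.84 in the knockout, against 6.80, 7.08 and 7.14 in wildtype. By limma 0 passed the test. Where 6.91% of all genes had an unadjusted p under 0.05, 3 of the 6 did. Of these, the integrin chain Itgae differed by -1.13 (adjusted p = 0.0961) and Runx3, a factor of the CD8 lineage, by -0.55 (adjusted p = 0.112). The list split into 4 genes below 0 and 2 above, and the 2 above were the genes of CD8 itself, named after their values were seen: Cd8a at 0.37 (adjusted p = 0.923) and Cd8b1 at 0.13 (adjusted p = 0.984). The part of CD8 T cells in the Eomes values was likewise not tested. Among 6 measured genes of natural killer and innate lymphoid cells 0 passed by limma, or had an unadjusted p under 0.05, and their mean stayed between 3.34 and 3.43 in the knockout and between 3.36 and 3.45 in wildtype. Ncr1, a defining natural killer cell receptor named here after its values were seen, lay between 3.00 and 3.08 in knockout and between 2.90 and 3.14 in wildtype cells.

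Double-positive thymocyte genes were uneven among the knockout arrays. The mean of 9 measured genes was 7.04, 7.54 and 8.10 in the knockout, against 6.91, 7.22 and 7.20 in wildtype, highest on knockout replicate 3 as Prdm1 and Bcl6 were. By limma 0 of the 9 passed and 5 had an unadjusted p under 0.05, against 6.91% of all genes. The median difference was 0.46, with 8 genes above 0 and 1 below. The largest differences, named after their values were seen, were in the recombinase gene Rag1 (1.27, adjusted p = 0.591), whose groups overlapped, and in Arpp21 (0.95, adjusted p = 0.305). Themis, which tunes T cell receptor signals during selection, differed by 0.55 (adjusted p = 0.077). Cd24a, a surface protein lost as thymocytes mature, was the 1 gene below 0 and differed by -0.58 (adjusted p = 0.264). Their part in the values of Prdm1 and Bcl6 was not tested. With knockout replicate 3 and wildtype replicate 1 both left out, an alternative chosen after seeing the data, 0 of the 10 factors passed by limma and 2 had an unadjusted p under 0.05.

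Further lists of other cells held few or no calls by limma. Gamma delta T cell genes, Maf left out, gave 0 calls among 5, with Sox13 at -0.27 (adjusted p = 0.514). B cell genes gave 0 among 5 and dendritic cell genes 0 among 8, and in the gamma delta, B and dendritic lists together 1 gene had an unadjusted p under 0.05. Of 8 macrophage and monocyte genes 1 rose: Lyz2, the lysozyme of myeloid cells, was at 7.03, 6.82 and 6.17 in the knockout, against 5.68, 4.97 and 5.22 in wildtype (adjusted p = 0.0256). It passed in 2 of the 6 leave-one-out fits, and without wildtype replicate 3 the adjusted p was 0.153. The 8 genes split into 4 below 0 and 4 above, with a median difference of -0.01. Of these 8, 2 had an unadjusted p under 0.05. Beside Lyz2 this was Itgam, named after its values were seen, which was lower without overlap (-0.33, limma, adjusted p = 0.528).

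**Figure D4:**
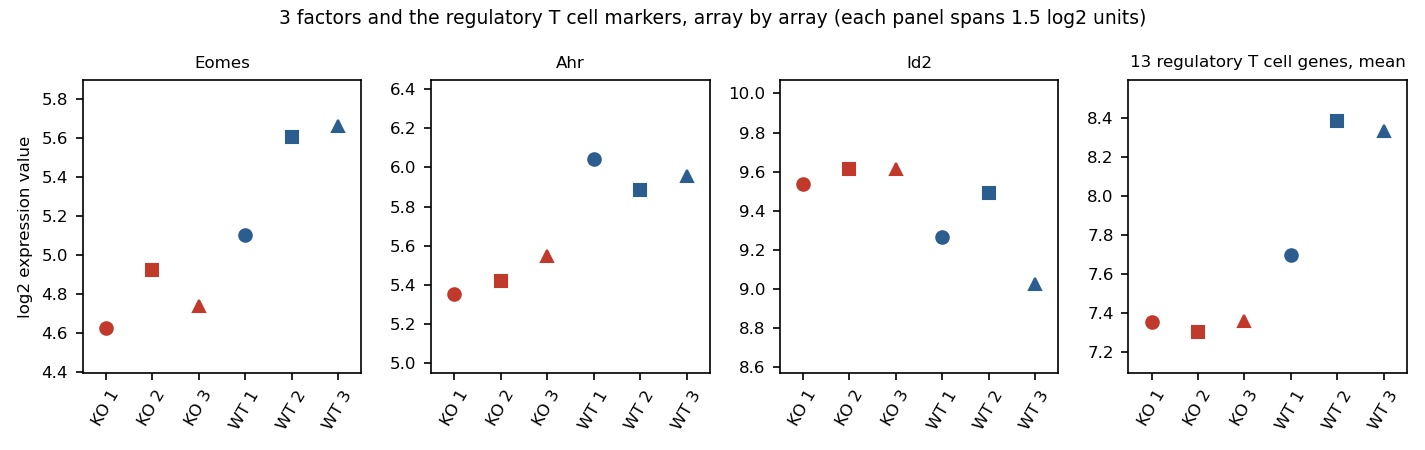
Log2 values of Eomes, Ahr and Id2 and the mean of 13 regulatory T cell genes on each array, with the 3 Bach2 knockout arrays on the left in red and the 3 wildtype arrays on the right in blue. Eomes and the marker mean share a low wildtype replicate 1, at 5.11 and 7.70, whereas Ahr is highest on that array, at 6.05. Means of several other lists, such as the type 1 and CD8 T cell genes, are also lowest on that array among the wildtype arrays.

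The genes whose profiles over the 6 arrays lay nearest to the 3 factors with the smallest p were listed, by the root mean square distance after each gene was centred on its own mean. For Ahr these were Larp4 (distance 0.0618), Myo10 (0.0704) and Krt23 (0.0774). Myo10 was at 5.97, 6.01 and 6.04 in the knockout, against 6.52, 6.56 and 6.48 in wildtype, and it fell by 0.51 (limma, adjusted p = 0.0345). For Eomes they were Ift80 (0.069), Gimap7 (0.0821) and Il2rb (0.0965). All 3 had a low wildtype replicate 1, which follows from how they were picked. Ift80, for example, read 7.16, 7.24 and 7.14 in the knockout, against 7.50, 8.06 and 8.02 in wildtype. For Id2 they were Rpl12 (0.0485), Bbs12 (0.0489) and Ccr9 (0.051). Ccr9, a chemokine receptor of thymocytes, read 10.66, 10.74 and 10.77 in the knockout, against 10.37, 10.49 and 10.17 in wildtype. With 19938 genes and 6 arrays, close profiles are found for many genes, and the distances are given as a description. The genes were picked for likeness to a factor, so their differences, that of Myo10 included, add no support to it.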

How the data were processed

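The authors deposited 1 log2 expression value per probe set and array for 35556 probe sets on 6 arrays, biotin-labelled from amplified RNA per the labels' protocols. RMA and Partek are named, without versions, per the submitters' processing notes. The log2 scale was read from the deposited values, which ran from 1.09 to 13.2 with array medians of 4.93 to 4.97 and were not centred per gene. Builds and further steps were not given in the sources used here. Since RMA equalises the distributions of arrays, a change common to most genes would be hidden. Arrays carry no read depth, and 3 per group limit the precision.

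Symbols came from the platform annotation, which can be old: 21789 probe sets had 1 symbol, 1621 several and 12146 none listed. Probe sets with 1 symbol were used, by the highest mean over the arrays for the 999 genes with more than 1. Knockout minus wildtype was fitted with limma 3.58.1 in R 4.3.3 (lmFit, eBayes, two-sided, genotype only), with Benjamini-Hochberg adjustment, and checked on simulated data. Errors beside differences are limma standard errors. Names given are the 10 factors, Bach2, Ptprc and Foxp3, the 3 genes nearest in profile to each of the 3 factors with the smallest p, and per list up to 3 genes past the test or else the 2 with the smallest p; exceptions are marked. Predicted genes were not named. The factors and the lists were chosen with earlier results of these data known. Arrays correlated at 0.990 to 0.991 within knockout, at 0.981 to 0.988 within wildtype and at 0.984 to 0.989 between genotypes (Pearson's r over probe sets). The plots used Python 3.11.15 and matplotlib 3.10.9.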

Additional observations from a re-analysis of the deposited data

How the results depend on the processing

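The count of factors past the test was 0 with the reported limma fit and 0 under 13 of 17 other settings, where 2 or 3 factors had an unadjusted p under 0.05. It was 1 without dim genes (10624 genes left, Prdm1 not among them) and 1 with array weights, Ahr each time. It was 1 with the replicate number as a block, where Eomes passed (adjusted p = 0.039), and 0 to 1 over the fits that left out 1 array, where Eomes passed without wildtype replicate 1. The labels state no pairing, so the numbers were not taken to pair the samples. Same-numbered samples deviated together at r = 0.21, 0.11 and -0.07 over genes, which cannot settle whether they shared a mouse. Of the 97 genes in the lists around the factors, 4 passed in the reported fit, 6 with the replicate block and 2 to 6 over the fits that left out 1 array. Over all genes, 113 were called with the reported fit, 178 with a prior that followed expression level, 1 without moderation, 37 with all probe sets and 47 to 118 leaving out 1 array.

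Of 169 values of single factors under other settings, 12 turned sign, all in factors whose difference was within 0.05 of 0. Prdm1 was 0.0047 with array weights. Without wildtype replicate 1 and knockout replicate 3 together, Tbx21 was 0.035 and Bcl6 -0.048. Leaving out 1 array moved Tbx21 between -0.091 and 0.016, Prdm1 between -0.15 and 0.046, Bcl6 between -0.031 and 0.094, Rora between -0.14 and 0.043 and Zbtb16 between -0.12 and 0.12. Eomes, Ahr, Maf, Id2 and Id3 kept their sign in every setting tried. Each factor had 1 probe set, so no other probe set could be tried. Without detection calls, how far the factors lay above background was not measured.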
